A study of Homo sapiens with 7 samples.

Results

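The 4 HOX clusters of HCT116 cells, a human colorectal carcinoma line, were examined in peak lists from PIXUL-ChIP-seq. In this assay chromatin is sheared in a microplate with the PIXUL ultrasound instrument before chromatin immunoprecipitation and sequencing. Cells were grown to 200000 per well, and each mark was profiled in a single well, so that every mark has 1 library and no replicate. No treatment is given in the labels. Lists of H3K4me3, H3K9Ac, H3K4me1, H3K27me3, H3K36me3 and CTCF were used, and the H3K27Ac library was not analysed here. The members were a list of 38 HOX genes, among 20163 protein-coding genes of the annotation. All peaks overlapping a gene body or the 10 kb on either side of it were taken, together with the clusters as wholes. Of 83939 peaks past the limits in the 6 lists, 103 lay at a member.

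HOX genes encode homeodomain transcription factors that give segments of the body axis their identity. In each cluster the genes lie in the order of their paralog groups, 1 to 13, and the same order is found again in where and when they are used along the axis of the embryo, which is known as colinearity. Groups of low number act in hindbrain and neck, and groups of high number in the lumbar and tail region, the limb ends and the urogenital tract. Adult epithelia, that of the colon included, keep part of this positional code. Trithorax (MLL) complexes place H3K4me3 at promoters in use, where H3K9Ac is also found. H3K4me1 marks enhancers and the margins of active promoters. Polycomb repressive complex 2 (PRC2) deposits H3K27me3 over silent developmental genes, HOX genes among the best known. H3K36me3 is laid down along transcribed gene bodies. CTCF binds a long non-palindromic motif and, with cohesin, forms the borders of chromatin domains, and several such sites lie between HOX genes.

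On hg19, and with 10 kb added at either end, the clusters are HOXA at chr7:27129973-27249710 (10 members), HOXB at chr17:46595888-46816112 (10 members), HOXC at chr12:54322615-54459814 (9 members) and HOXD at chr2:176947449-177065635 (9 members). HOXA and HOXB genes are on the minus strand, and HOXC and HOXD genes are on the plus strand. Their lengths of 119.7, 220.2, 137.2 and 118.2 kb sum to 595.4 kb. The value of a peak is its fold enrichment, the signal of the library over its local background averaged over the whole peak. Peaks were kept where the fold enrichment exceeded 5 and the q-value lay under 1e-10, or exceeded 2 with a q-value under 1e-03 for H3K4me1 and H3K27me3. Fold enrichments were compared within a mark and not between marks, since the libraries differ in antibody and their depths are not given.

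Sequences found in the clusters are shown first. Of 23 CTCF peaks in the clusters, 5 held a CTCF core motif of 12 bases, which reads CCA, 2 bases of any kind, AG, 2 bases of any kind and GGC. This motif was searched on both strands and is part of the longer CTCF motif. Each site is given 5′ to 3′ on the strand of its motif, with the motif in capitals and 8 bases on either side.

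HOXA site between HOXA7 and HOXA9, chr7:27200749-27200776, minus strand: aacggcggCCAGCAGATGGCagtgtggc
HOXA site in the HOXA10 gene, chr7:27219517-27219544, minus strand: cgcagccgCCACGAGATGGCgcacttcc
HOXB site beyond HOXB9, chr17:46714282-46714309, plus strand: tgatgtccCCAGCAGCCGGCtagagggc
HOXD site between HOXD13 and HOXD12, chr2:176962479-176962506, minus strand: cccaatgcCCAGGAGATGGCgagcgcgc
HOXD site in the HOXD3 gene, chr2:177005365-177005392, plus strand: cgcctcgtCCAGGAGGAGGCgctgtagg

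The clusters also encode microRNAs, some of which are known to target HOX transcripts. The miR-196 genes lie beside the group 9 and 10 genes of 3 clusters, and the 5p arms of their mature products share the seed AGGUAGU, bases 2 to 8, printed in capitals. Sequences are those of RefSeq (GRCh38.p14), and the hairpin positions are on hg19. The mature forms of 22 bases differ at 1 position, A12C, counted from the 5′ end with the base of miR-196a-5p first.

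miR-196a-5p, MIR196A1 at chr17:46709852-46709921 and MIR196A2 at chr12:54385522-54385631: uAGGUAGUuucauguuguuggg
miR-196b-5p, MIR196B at chr7:27209099-27209183: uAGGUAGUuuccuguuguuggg
miR-615-3p, MIR615 at chr12:54427734-54427829: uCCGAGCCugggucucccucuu

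The promoters were read first. A peak was assigned to a promoter if it overlapped the 1 kb on either side of the canonical transcription start site (TSS). H3K4me3 was found at 18 of 38 HOX genes (47.4%, 95% Wilson interval 32.5 to 62.7%), where it was found at 59.1% of all protein-coding genes. H3K9Ac was found at 19 HOX genes (50%, against 58.5% of all protein-coding genes) and H3K4me1 at 22 (57.9%, against 49.1%). The interval of the HOX genes held the value of all protein-coding genes for each of these 3 marks, so that the family as a whole was marked about as often as other genes. All 18 promoters with H3K4me3 also carried H3K9Ac, and 17 carried all 3 marks (44.7%, against 43.1% of all protein-coding genes). The remaining promoter, of HOXB2, lacked only H3K4me1. H3K4me1 without H3K4me3 was found at 5 HOX genes (13.2%, interval 5.75 to 27.3%, against 5.03%). No peak of any of the 6 lists was found at 15 HOX genes (39.5%, against 33.9%). With 1 library per mark none of these shares could be tested, and the intervals cover counting error only.

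The clusters differed in how many of their promoters were marked. H3K4me3 was found at 8 of 10 HOXA genes (80%, 95% Wilson interval 49.0 to 94.3%) and at 7 of 10 HOXB genes (70%, 39.7 to 89.2%). It was found at 2 of 9 HOXC genes (22.2%, 6.32 to 54.7%) and at 1 of 9 HOXD genes (11.1%, 1.99 to 43.5%). The intervals of HOXA and HOXD did not overlap, whereas those of the other pairs did. This rests on the canonical starts. With any annotated start HOXD3 also had H3K4me3, and 2 of 9 has the interval given for HOXC, which overlaps that of HOXA. Neighbouring genes can share a peak, and 6 of the 18 genes with H3K4me3 did so in 3 pairs, so that genes of a cluster are not independent. H3K4me1 was less uneven, with 8 of 10 HOXA, 6 of 10 HOXB, 5 of 9 HOXC and 3 of 9 HOXD genes. All protein-coding genes had H3K4me3 at 59.1% and H3K4me1 at 49.1%.

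**Figure D1:**
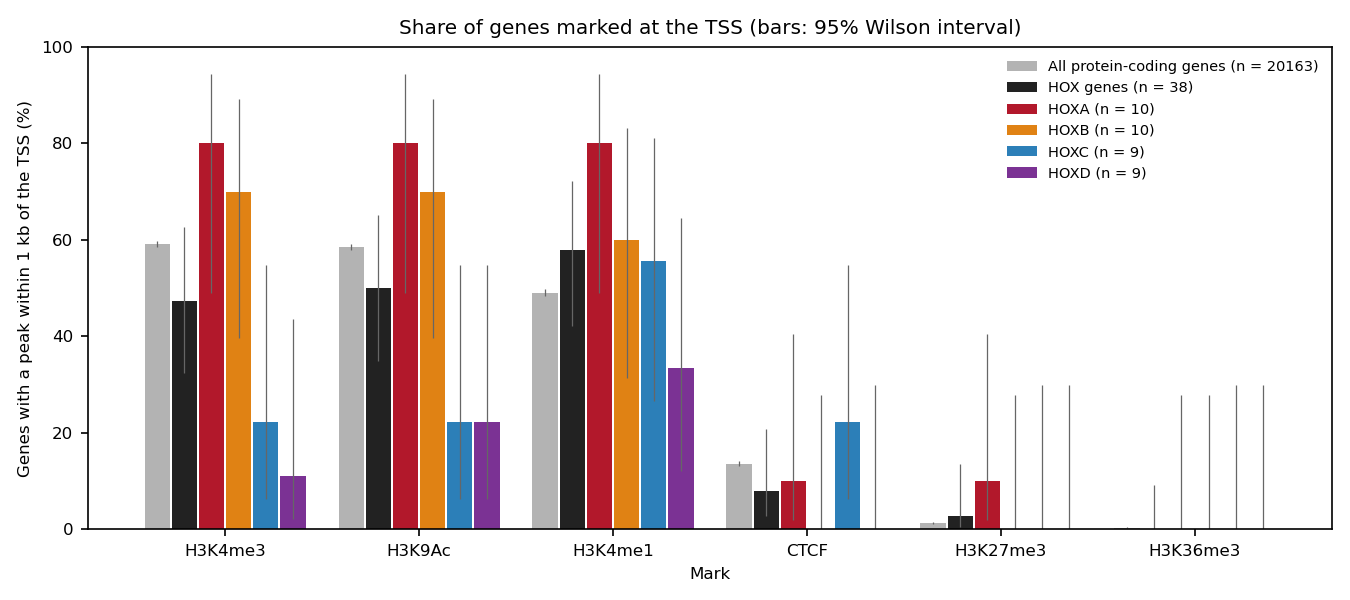
Share of genes with a peak past the limits within 1 kb of the TSS, in percent on the vertical axis, for each of the 6 marks, with 95% Wilson intervals as lines. Grey bars are all 20163 protein-coding genes, black bars the 38 HOX genes and coloured bars the clusters, and H3K4me3 goes from 80% in HOXA to 11.1% in HOXD.

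By position along the clusters, H3K4me3 was found at 2 of 7 genes of the anterior groups 1 to 3, at 9 of 15 of the central groups 4 to 8 and at 7 of 16 of the posterior groups 9 to 13. The 3 Wilson intervals overlapped, and the share of all protein-coding genes was 59.1%. H3K4me1 without H3K4me3 was found at 1 of 7 anterior, 0 of 15 central and 4 of 16 posterior genes, against 5.03% of all protein-coding genes. Promoters with no peak of any list numbered 4 of 7, 6 of 15 and 5 of 16 in the same order, against 33.9%. The groups are small, and differences between them were not tested.

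**Figure D2:**
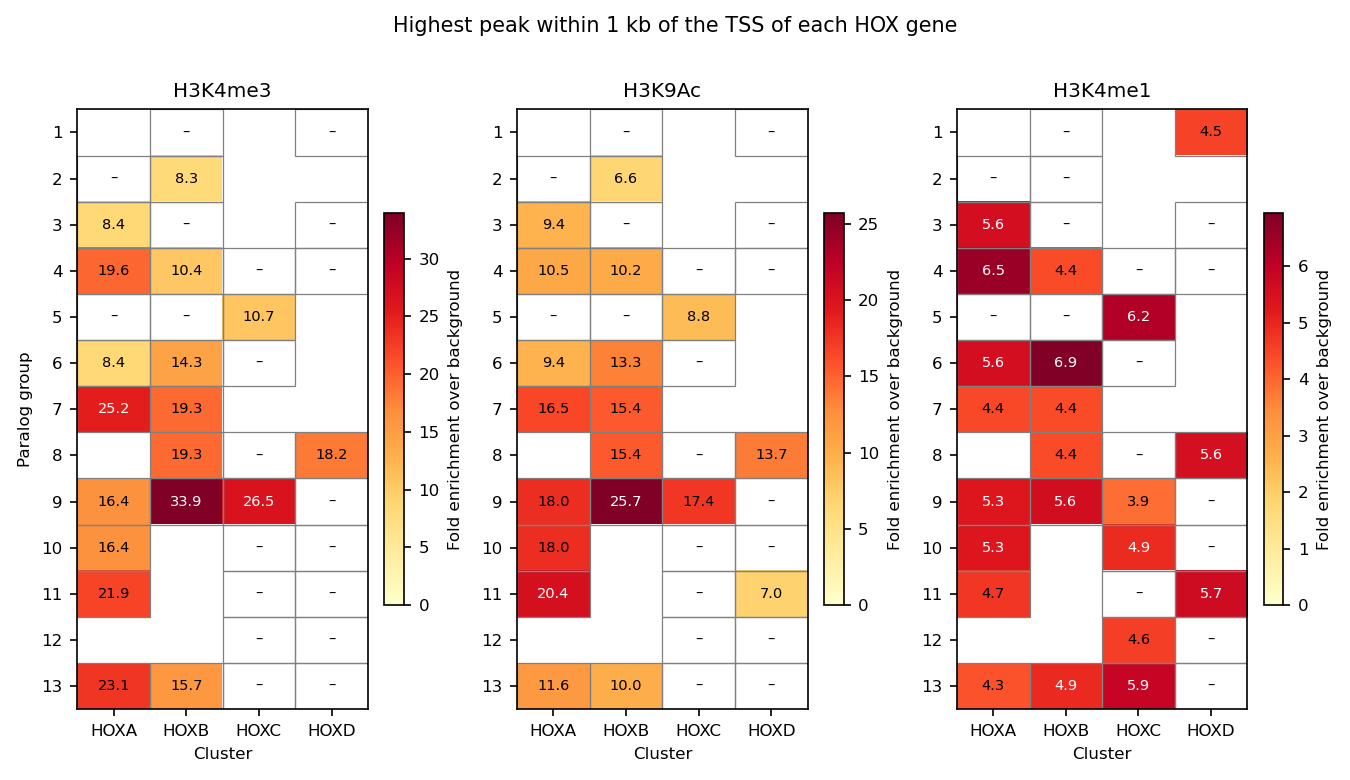
Fold enrichment of the highest peak within 1 kb of the TSS, as colour and number, for paralog groups (rows) and clusters (columns), in 1 panel each for H3K4me3, H3K9Ac and H3K4me1. A dash marks a gene with no peak past the limits and an empty cell no gene examined. HOXA and HOXB columns are mostly filled, and the highest H3K4me3 value is 33.9 at HOXB9.

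In HOXA the marked promoters ran from HOXA3 to HOXA13, with HOXA5 left out. HOXA13, which shapes the hand, foot and genital tract, had a fold enrichment of 23.1 for H3K4me3, 11.6 for H3K9Ac and 4.26 for H3K4me1. HOXA11, needed for forearm and uterus, reached 21.9, 20.4 and 4.71 in the same order, and its H3K9Ac value was the highest of the cluster. HOXA7, a gene of the thoracic region, had the highest H3K4me3 value of the HOXA genes (25.2), with 16.5 for H3K9Ac and 4.43 for H3K4me1. HOXA9, a regulator of blood progenitors, and HOXA10, a uterine patterning gene, lay in the same peaks, at 16.4, 18.0 and 5.33. These posterior and central genes all carried the 3 active marks.

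The HOXA genes of lower number were less uniform. HOXA4 had 19.6 for H3K4me3, 10.51 for H3K9Ac and 6.54 for H3K4me1, the highest H3K4me1 value at a HOXA promoter. HOXA6 and the canonical start of HOXA3, a gene needed for thymus and parathyroid, shared peaks of 8.44, 9.43 and 5.57. That start of HOXA3 lies upstream of HOXA6 and not beside the homeobox exon. Another H3K4me3 peak, at chr7:27152758-27155604 inside HOXA3, was enriched 6.83-fold, and its −log10 q-value of 10.8 was just past the limit of 10. HOXA2, which patterns the hindbrain and the second pharyngeal arch, had no peak past the limits at its TSS, and its nearest H3K4me3 peak lay 5063 bp away. HOXA5, active in lung, likewise had none, and its nearest lay 4284 bp away.

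In HOXB the highest values were found at HOXB9, a thoracic gene. Its H3K4me3 peak reached 33.9, the highest of any HOX gene and rank 918 of 12749 in the list. Its H3K9Ac peak reached 25.7, rank 63 of 12720, and H3K4me1 was 5.596. HOXB9 thus had the highest value of all HOX genes for both marks. HOXB7 and HOXB8 shared peaks of 19.3 for H3K4me3, 15.4 for H3K9Ac and 4.38 for H3K4me1. HOXB6 had 14.3, 13.3 and 6.94, the last being the highest H3K4me1 value at any HOX promoter. HOXB13, a gene of the prostate and hindgut that lies apart from the rest of its cluster, had 15.7, 10.01 and 4.94.

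Towards the anterior end of HOXB the values were lower. HOXB4, known for expanding blood stem cells, had 10.4 for H3K4me3, 10.2 for H3K9Ac and 4.37 for H3K4me1. HOXB2, a hindbrain gene, had 8.27 for H3K4me3 and 6.59 for H3K9Ac, and its deposited H3K4me1 peak of 3.62 missed the limit with a −log10 q-value of 2.61. HOXB1, which specifies facial motor neurons, had no deposited peak of any list at its TSS. HOXB3 and HOXB5 had none past the limits there, and both lay in a deposited H3K36me3 peak of 4.79 that did not pass.

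HOXC carried the active marks at HOXC9 and HOXC5 only, by the canonical starts. HOXC9, which organises thoracic motor neurons, had 26.5 for H3K4me3, 17.4 for H3K9Ac and 3.90 for H3K4me1, and the H3K4me3 value is the second of all HOX genes. HOXC5 had 10.7, 8.76 and 6.21, together with a CTCF peak of 14.9. HOXC10, HOXC12 and HOXC13, the last known for hair and nail, carried H3K4me1 at 4.93, 4.59 and 5.87 without H3K4me3 or H3K9Ac past the limits. Their deposited values were under the limits where present, as at HOXC13 (H3K4me3 2.82, H3K9Ac 3.38). HOXC11 came nearer to the limits, with H3K9Ac at 6.08 and a −log10 q-value of 9.06 and with H3K4me3 at 4.72. HOXC4, HOXC6 and HOXC8 had no deposited peak at the canonical TSS.

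HOXD was marked at HOXD8 and, in part, at HOXD11. HOXD8 had 18.2 for H3K4me3, 13.7 for H3K9Ac and 5.56 for H3K4me1. HOXD11, a limb and kidney gene, had 6.99 for H3K9Ac and 5.67 for H3K4me1, and its H3K4me3 peak of 6.49 missed the limit by its −log10 q-value of 9.97. HOXD1 carried H3K4me1 at 4.52 only. HOXD3, HOXD4, HOXD9, HOXD10, HOXD12 and HOXD13 had no deposited peak of any list at the canonical TSS. HOXD13, the paralog of HOXA13, was thus without all the marks found at HOXA13.

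Of the 15 promoters without a peak past the limits, 10 had no deposited peak of any list either. The other 5 were HOXA2, HOXA5, HOXB3, HOXB5 and HOXC11. The choice of start mattered for a few genes, since HOX genes overlap and many have distant upstream starts. H3K4me3 was found at another annotated start of HOXB3 (14.3, the peak of HOXB6), HOXC4 (11.7), HOXC6 (17.1) and HOXD3 (14.01). Counting these, 22 members had H3K4me3 at some annotated start and 16 at none. These peaks lie next to starts of more than 1 gene or antisense RNA and cannot be given to a single transcript.

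Within paralog groups the members examined were compared across clusters. Of 13 groups, 1 had H3K4me3 at every member (group 7), 2 had it at none (groups 1 and 12) and 10 had it at some. In group 9 the H3K4me3 values were 16.4 at HOXA9, 33.9 at HOXB9 and 26.5 at HOXC9, with no peak at HOXD9. In group 4 HOXA4 and HOXB4 were marked and HOXC4 and HOXD4 were not. In group 13 HOXA13 and HOXB13 were marked and HOXC13 and HOXD13 were not. Group 5 was the reverse, with HOXC5 marked and HOXA5 and HOXB5 not, and in group 8 HOXB8 and HOXD8 were marked and HOXC8 was not.

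The marked HOX promoters were next compared with other promoters in height and width. Over the 18 genes with H3K4me3 the median fold enrichment was 17.3 (8.27 to 33.9), against 22.5 over 11924 protein-coding genes with H3K4me3. The median width was 2308 bp (1208 to 14244 bp), against 2061 bp. These medians count a shared peak for each of its genes. The 18 genes lie at 15 distinct peaks, and the 3 shared peaks are wide ones, of 14244, 6286 and 5011 bp. The difference in median width is thus not shown to hold over distinct peaks. For H3K9Ac the median fold enrichment was 13.3 against 13.1, and for H3K4me1 it was 5.13 against 4.69. The widest H3K4me3 peak of the clusters, at chr7:27200147-27214390, measured 14244 bp and was the second widest of 12749. It held the TSS of HOXA9 and HOXA10 and the whole MIR196B hairpin at a fold enrichment of 16.4. Among the H3K4me3 peaks of highest fold enrichment at each protein-coding TSS, none was wider. The H3K9Ac peak over it, at chr7:27199894-27215248, measured 15355 bp, which was rank 170 of 12720 by width and rank 1382 by fold enrichment.

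Other wide H3K4me3 peaks lay at central HOX genes and at the anterior gene HOXA3. The HOXB4 peak measured 6320 bp (rank 31), the peak of HOXB7 and HOXB8 measured 6286 bp (rank 33), the peak of HOXA3 and HOXA6 measured 5011 bp (rank 120) and the HOXB6 peak 4032 bp (rank 329). The corresponding H3K9Ac peaks were 13573 bp at HOXB4 and 12093 bp at HOXB7 and HOXB8. The broad setting of the peak caller joins nearby enriched stretches, and its part in these widths was not tested.

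**Figure D3:**
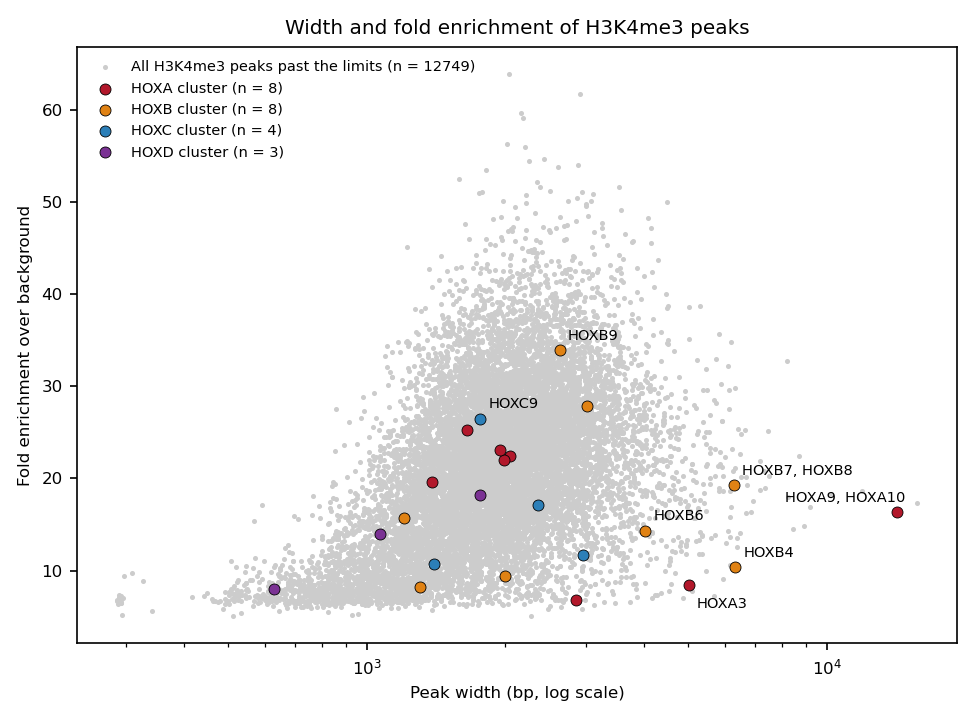
Width in bp (log axis) and fold enrichment of each H3K4me3 peak past the limits, with 12749 peaks in grey and those of the HOX clusters in colour. The peak of HOXA9 and HOXA10 lies at the far right at 14244 bp and 16.4, and HOXB9 is the highest of the coloured points at 33.9.

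Base composition was compared between marked and unmarked HOX promoters. The ratio of observed to expected CpG in the 1 kb on either side of the TSS had a median of 0.717 in the 18 HOX promoters with H3K4me3 and 0.671 in the 20 without. Among other protein-coding genes it was 0.710 with H3K4me3 and 0.306 without. A ratio above 0.6, usual for a CpG island, was found at 12 of 18 marked and 14 of 20 unmarked HOX promoters (70%), against 79.7% and 21.1% of the other genes. HOX promoters were thus CpG-rich with or without the mark. The difference was not tested, since neighbouring promoters share sequence and peaks.

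The clusters as wholes were then divided into segments. An active segment is a stretch covered by H3K4me3 or H3K9Ac peaks past the limits, and a polycomb segment is 1 covered by H3K27me3. Active segments covered 38.3 kb of HOXA (32.0%), 44.8 kb of HOXB (20.4%), 15.1 kb of HOXC (10.99%) and 5.90 kb of HOXD (4.99%). Together they covered 17.5% of the clusters, against 1.57% of hg19. H3K4me1 covered 41.0, 18.7, 12.3 and 5.40% of the clusters in the same order, and 19.1% in all against 2.89% of hg19. The order HOXA, HOXB, HOXC, HOXD was thus the same for both. The hg19 values include gene-poor and unassembled sequence, whereas the clusters are dense in genes, and the part of gene density in the difference was not tested.

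**Figure D4:**
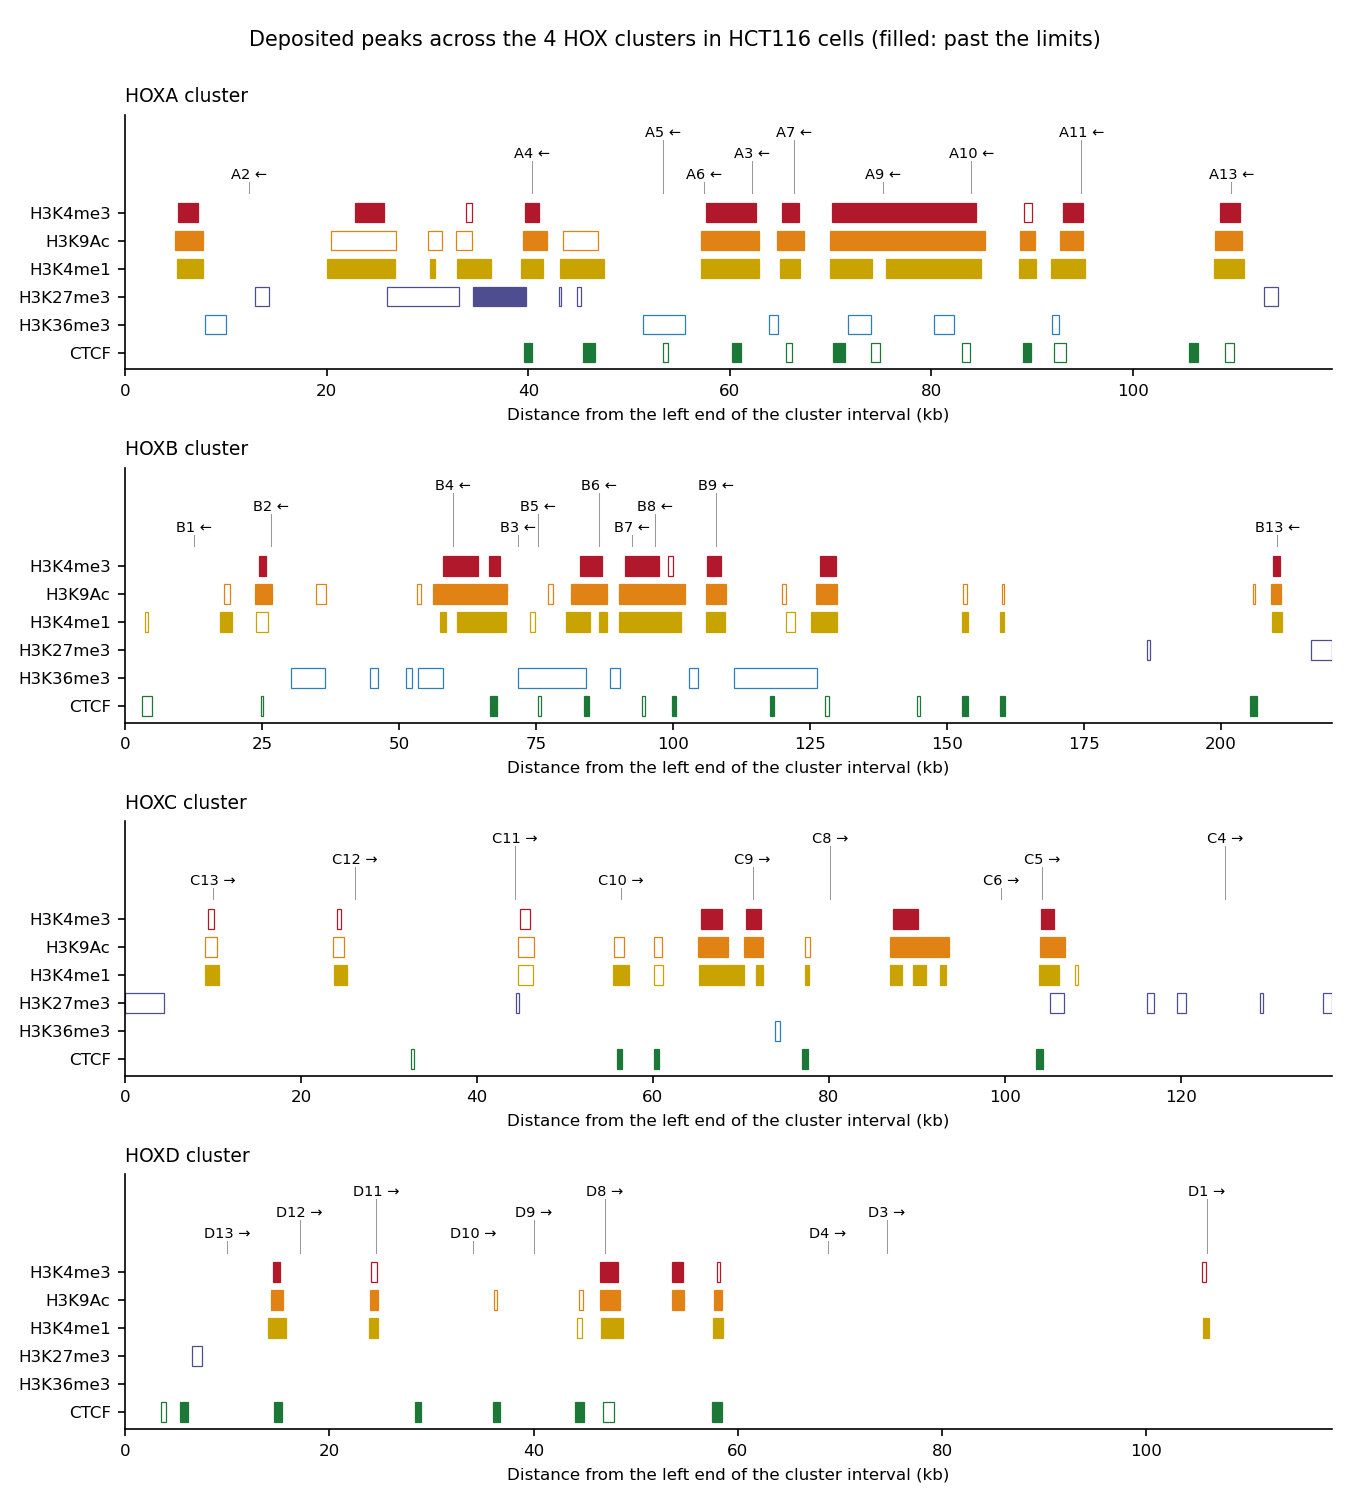
Peaks of the 6 lists along the 4 clusters, with distance from the left end of each cluster interval in kb on the horizontal axis. Filled boxes are peaks past the limits, open boxes are deposited peaks that are not, and labels give the canonical TSS and direction of the members. Filled active marks extend over HOXA and the middle of HOXB, and are few in HOXC and HOXD.

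Long stretches without an active segment lay at both ends of HOXC, and at the HOXD1 end and in the middle of HOXD. In HOXC a stretch of 65.1 kb held the TSS of HOXC10, HOXC11, HOXC12 and HOXC13, and another of 30.4 kb held that of HOXC4. In HOXD a stretch of 59.8 kb held HOXD1, HOXD3 and HOXD4, and 1 of 21.7 kb held HOXD9 and HOXD10. In HOXA the longest stretches measured 15.3 kb, with HOXA5, and 15.1 kb, with HOXA2. Within the cluster intervals the longest stretch, 79.2 kb in HOXB, lay between the promoter of LINC02086 and HOXB13 and held no member. Those of 65.1, 30.4 and 59.8 kb run to an end of their interval, 10 kb flank included, and were cut there. Their full lengths were not measured, so that they cannot be ranked against that of HOXB. With 50 kb added in place of 10 kb, the active segments of HOXC stayed at 15.08 kb, so that both of its end stretches go on further. With its 10 kb flanks each gene was usually near some mark, since H3K4me3 was found in the body or flanks of 32 members (84.2%, against 69.1% of all protein-coding genes), H3K9Ac in 32 (84.2%, against 68.3%) and H3K4me1 in 37 (97.4%, against 71.9%). In the gene body alone, without the flanks that neighbouring genes share, H3K4me3 was found for 22 members (57.9%, against 63.3%), H3K9Ac for 23 (60.5%, against 62.9%) and H3K4me1 for 25 (65.8%, against 60.7%). For H3K4me3 and H3K9Ac the share thus lay above that of all protein-coding genes with the flanks and below it without them. The 6 genes without H3K4me3 were HOXB1, HOXC11, HOXC12, HOXC13, HOXD1 and HOXD4. HOXD4 had no deposited peak of any list in its body or flanks.

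Polycomb segments were few. H3K27me3 past the limits was found at the TSS of 1 member, HOXA4 (2.63%, 95% Wilson interval 0.466 to 13.5%, against 1.22% of all protein-coding genes), and in the body or flanks of 2, HOXA3 and HOXA4 (against 3.94%), and the gene bodies alone gave the same 2 genes (against 2.96%). These values come from 1 peak, at chr7:27164511-27169769, of 5259 bp. Its fold enrichment of 4.40 was rank 172 of 1552, and its −log10 q-value was 4.04. It ended beside the HOXA4 promoter, where it overlapped an active segment over 0.36 kb, and HOXA4 was the only HOX promoter with both H3K4me3 and H3K27me3. HOXB, HOXC and HOXD had no H3K27me3 peak past the limits, although HOXC and HOXD held most of the unmarked promoters.

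The deposited list before the limits held more peaks, which missed the limits. With these it put H3K27me3 in the body or flanks of 14 members in place of 2. It held 16 H3K27me3 peaks in the clusters, 6 in HOXA (15.8 kb, 13.2% of the cluster), 2 in HOXB, 7 in HOXC (9.606 kb, 7.001%) and 1 in HOXD (0.93 kb, 0.787%). They covered 5.16% of the clusters, against 7.16% of hg19. At the TSS such a peak was found for 4 members, HOXA2 (2.66), HOXA4 (4.40), HOXC5 (2.92) and HOXC11 (2.73). Only 2.81% of the deposited H3K27me3 peaks passed the limits, and the depth of this library is unknown, so that H3K27me3 below this level was not detectable here and is not shown to be absent.

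H3K36me3 had no peak past the limits in the body or flanks of any HOX gene (0 of 38, upper bound of the Wilson interval 9.18%, against 0.789% of all protein-coding genes), nor in the body alone (0 of 38, against 0.496%) or at the TSS (0 of 38, against 0.298%). Only 90 of 40010 deposited H3K36me3 peaks passed. Deposited peaks covered 19.9% of HOXB (8 peaks, 43.9 kb), 10.2% of HOXA (6 peaks, 12.2 kb) and 0.381% of HOXC (1 peak), and HOXD had none. The clusters together were covered to 9.50%, against 6.61% of hg19. The highest, of 4.79 with a −log10 q-value of 5.49, lay at chr17:46667586-46679918 over HOXB5 and HOXB6, and the widest, 15117 bp, lay beyond HOXB9. The order of these values, HOXB before HOXA, with HOXC and HOXD last, was that of the active segments in kb. As a share of the cluster, active segments were instead higher in HOXA (32.0%) than in HOXB (20.4%).

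CTCF peaks numbered 6 in HOXA, 7 in HOXB, 4 in HOXC and 6 in HOXD, or 3.86 per 100 kb against 0.793 per 100 kb of hg19. The hg19 value includes gene-poor and unassembled sequence, and the part of gene density in this difference was not tested. Unlike the active marks, CTCF peaks were as many in HOXD as in HOXA. CTCF was found in the body or flanks of 31 members (81.6%, against 62.4% of all protein-coding genes), and in the body alone of 15 (39.5%, against 43.5%), so that the share lay above that of all genes only with the flanks. It was found at the TSS of 3, HOXA4 (6.88), HOXC5 (14.9) and HOXC10 (10.9), which is 7.89% against 13.6%. The highest CTCF peak lay at chr17:46695752-46696481, inside the annotated HOXB7 gene and 3098 bp from the TSS of HOXB8, with a fold enrichment of 30.001, rank 89 of 24536. It was followed by the peak in HOXD3 (24.1, rank 417), the peak between HOXA7 and HOXA9 (22.4, rank 651), the peak between HOXD13 and HOXD12 (19.6) and a peak far from members in HOXB (19.5).

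The CTCF peaks were then set beside the histone marks. In the clusters 10 of 23 overlapped an active segment (43.5%, 95% Wilson interval 25.6 to 63.2%), against 14.7% of all CTCF peaks. H3K4me1 was overlapped by 15 (65.2%, 44.9 to 81.2%), against 27.01%. Active segments and H3K4me1 also cover more of the clusters than of hg19, and how far this accounts for the overlap was not tested. Of the 8 peaks without a histone peak past the limits, 4 lay in HOXD, from HOXD13 to HOXD8, where 2 of 6 CTCF peaks overlapped an active segment. In HOXA 4 of 6 did so. The peak between HOXA7 and HOXA9 fell inside the wide active peak described above, at its HOXA7 end.

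**Figure D5:**
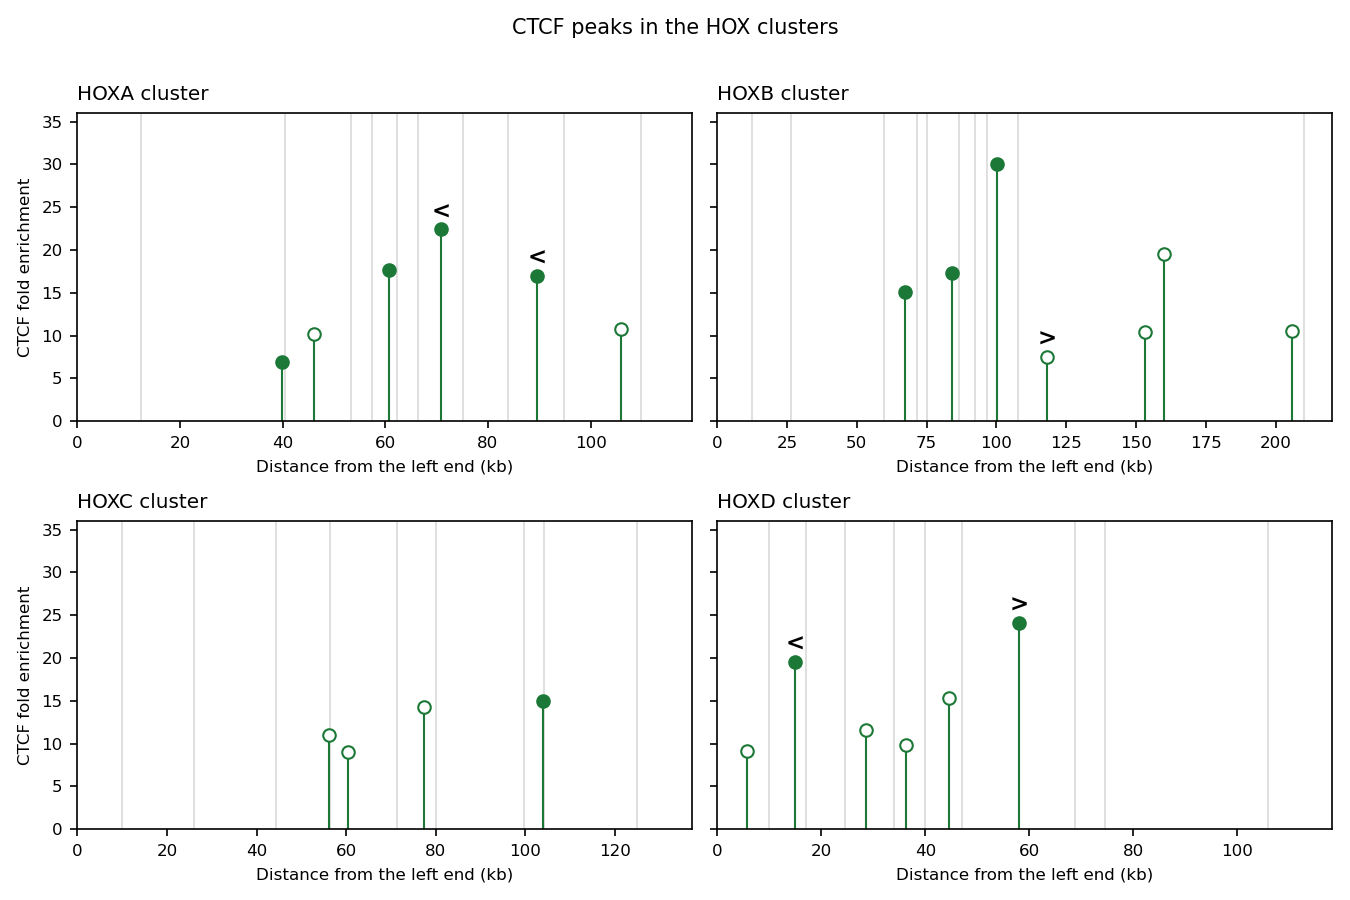
Fold enrichment of the 23 CTCF peaks against distance from the left end of each cluster interval in kb. Filled points overlap an active segment, open points do not, > and < give the direction of the core motif on the plus and minus strand, and grey lines are member TSSs. The highest point is 30.001 in HOXB, which has no core motif, and 5 peaks carry 1.

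The core motif printed above was counted in the same peaks. It was found in 5 of 23 (21.7%, 95% Wilson interval 9.66 to 41.9%), against 35 % of all 24536 CTCF peaks and 3.42% of the same intervals moved by 10 kb. The interval held the value of the whole list. With 1 mismatch to the stricter CTCF core motif, 6 of 23 cluster peaks matched (26.1%, 12.5 to 46.5%), against 65.9% of the list. There the interval did not hold the value of the whole list. The peak between HOXA7 and HOXA9 was the only 1 that matched the stricter motif in full. That is 1 of 23 (4.35%, 0.772 to 21.0%), against 22.4% of the list, a value that the interval did not hold. The cluster intervals moved by 10 kb also gave 1 of 23. The motifs in HOXA both pointed with the genes, those in HOXD pointed 1 with and 1 against them, and that in HOXB pointed against them. A match says only that these letters are in the peak.

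Non-coding genes of the clusters followed the peaks they lie in. HOTTIP, an RNA from the HOXA tip, shared the HOXA13 peak (H3K4me3 23.1), HOXA11-AS the HOXA11 peak (21.9) and HOXA10-AS the wide peak of HOXA9 and HOXA10 (16.4). In HOXB the shared promoter of LINC03057 and LINC02086 reached 27.9 for H3K4me3 and 20.2 for H3K9Ac, above all HOXB genes but HOXB9. In HOXC, HOXC-AS1 shared the HOXC9 peak (26.5) and HOXC-AS2 had 17.1. HOTAIR, an RNA from HOXC known for binding PRC2, had no peak past the limits at its TSS. HAGLR, opposite HOXD1, shared its H3K4me1 peak (4.52). Peaks carry no strand, so that a gene and its antisense partner cannot be told apart.

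Of the microRNAs printed above, MIR196B lay inside the wide HOXA peak, with 16.4 for H3K4me3, 18.0 for H3K9Ac and 5.33 for H3K4me1. MIR196A1 and MIR196A2, with the same seed, had no peak past the limits over the hairpin, and their nearest H3K4me3 peaks lay 5229 and 2445 bp away. MIR615, in the HOXC5 gene, lay in the HOXC5 peaks of 10.7, 8.76 and 6.21. MIR10B in HOXD, whose sequence is not printed, had no peak, and its nearest H3K4me3 peak lay 12959 bp away. MIR10A of the HOXB cluster had no entry in the annotation used and was left out. These are positions of chromatin marks and not levels of microRNA.

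The neighbours of the clusters were read in the same way. Of the even-skipped genes next to HOXA and HOXD, EVX1 and EVX2, 0 of 2 had H3K4me3 at the TSS, whereas SKAP2 (8.67), SKAP1 (6.43), CALCOCO1 (7.68), SMUG1 (12.5) and MTX2 (21.2) did. TTLL6, the neighbour beyond HOXB13, had H3K9Ac (5.79) and no H3K4me3 past the limits at its TSS. PRAC1 and PRAC2, prostate and hindgut genes beside HOXB13, had no H3K4me3. Among ParaHox genes, the sister cluster of HOX, 2 of 6 had H3K4me3 (33.3%, against 59.1% of all protein-coding genes). These were CDX2 (31.6), the intestinal regulator of posterior HOX genes, and PDX1 (19.2).

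The genes of the complexes that regulate HOX chromatin were marked throughout. H3K4me3 was found at 11 of 11 PRC2 genes, 16 of 16 PRC1 genes, 7 of 7 MLL complex genes and 2 of 2 H3K27 demethylases. All protein-coding genes had it at 59.1%. The lower Wilson bounds were 74.1, 80.6 and 64.6% for PRC2, PRC1 and MLL complex genes, and 2 demethylase genes are too few to compare. EZH2, the catalytic subunit of PRC2, reached 39.7. Genes of retinoic acid signalling, which induces HOX genes in the embryo, had H3K4me3 at 5 of 12. These genes are too few to set their share apart from 59.1%. The label of colon origin was checked against markers. H3K4me3 was found at 6 of 10 epithelial markers of colon, a share like the 59.1% of all protein-coding genes, among them EPCAM (30.4), CDH1 (25.1) and KRT19 (28.7), and not at VIL1, CDX1, KRT20 and LGR5. It was found at 0 of 9 markers of blood, endothelium, muscle, liver, neurons and glia.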

How the data were processed

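The authors deposited a list of broad peaks for each of 6 libraries, 1 library per mark. The labels give 7 libraries, and H3K27Ac was not analysed here. Per the labels, chromatin of HCT116 cells was sheared with PIXUL and immunoprecipitated in a single well per mark. The authors aligned reads to hg19 with BWA 0.7.12. Their text names MACS2 with the broad cutoff 0.1, and the submitters' processing notes list MACS 1.4.2, SAMtools 0.1.19 and bcl2fastq 2.20.0.442. The version of MACS2 is not given in the sources used here. The fold enrichment that the authors deposited is a linear ratio over local background, and the −log10 p-value, the −log10 q-value and the score, derived from the q-value, were deposited for each whole peak. The lists do not give read depth, which bears on how many peaks are called and on their widths.

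For H3K4me1 and H3K27me3, peaks with a fold enrichment over 2 were kept where q was under 1e-03, and for the others those over 5 where q was under 1e-10. The authors' text names no limits for CTCF, and those of the other marks were used. This left 12749 of 16112 H3K4me3, 12720 of 34164 H3K9Ac, 32292 of 50521 H3K4me1, 1552 of 55270 H3K27me3, 90 of 40010 H3K36me3 and 24536 of 44812 CTCF peaks. The annotation was GENCODE 44, lifted to hg19. It holds 20163 protein-coding genes, and the TSS was that of the canonical transcript for 19881 and the gene's own 5′ end for the rest. Overlaps required 1 bp. Motifs were read from hg19, and 9 mature microRNA entries of 5 microRNA genes matched RefSeq (GRCh38.p14), by symbol. Python 3.11.15, numpy 2.4.6, pandas 2.3.3, scipy 1.17.1, pyfaidx 0.9.0.4 and matplotlib 3.10.9 were used. On simulated data, 600 of 600 planted overlaps and 200 of 200 planted motifs were recovered.

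All 38 members, the genes and peaks inside the clusters, the neighbouring genes and fixed lists could be named. The members and lists were chosen with earlier results of these data known. One further HOX gene is not reported here, although the cluster totals include its peaks. With 1 library per mark no test was possible, and 95% Wilson intervals cover counting error only. The alternatives were other limits, windows, flanks, starts and motifs.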

Additional observations from a re-analysis of the deposited data

How the results depend on the processing

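Across 17 alternatives for 22 results, 156 values were recomputed, and 127 stayed within 1.5 times the reported value. H3K4me3 and H3K9Ac at the TSS and the length of the active segments were among those that did. Part of this count was fixed by the settings. With the q-value limit alone no result changed, and results of 0 could not fall under stricter limits. With all deposited peaks, H3K27me3 was found at the TSS of 4 members and in the body or flanks of 14, CTCF at the TSS of 10 and H3K36me3 in the body of 15. The polycomb segments were then 15.82 kb in HOXA, 4.385 kb in HOXB, 9.606 kb in HOXC and 0.93 kb in HOXD, and CTCF peaks numbered 12 in HOXA and 13 in HOXB. With the limits of the 2 groups of marks exchanged, H3K4me1 was found at the TSS of 2 members, H3K27me3 at the TSS of 0 and in the body or flanks of 0, CTCF at the TSS of 7 and H3K36me3 in the body of 4. The HOXA polycomb segments then fell to 0 kb, and CTCF peaks in HOXB numbered 11. With q under 0.01 and enrichment over 2 for H3K27me3 and H3K36me3, these marks were found at 5 members (body or flanks) and 7 (body), and polycomb segments were 12.39 kb in HOXA, 4.438 kb in HOXC and 0.93 kb in HOXD. H3K27me3 at the TSS was 0 with 500 bp on either side and 0 with at least 50% of the window covered. CTCF at the TSS was 8 with 2500 bp, 7 with any annotated start and 0 with 50% covered, and 15 members had CTCF in the body without flanks. The stricter CTCF core motif was found in 1 peak. Each change follows from how the alternative is built, in looser or stricter limits or in another window. No paired analysis was possible because the series holds a single library per mark. Without replicates, read depths or H3K27Ac, differences between marks, and between clusters, carry no error beyond counting. Peaks at near-identical HOX sequences were not separated.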
